A study of Homo sapiens with 30 samples.

Results

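Epithelial co-cultures exposed for 1 h to the lower dose of titanium dioxide nanobelts were compared with unexposed co-cultures of the same time. The comparison rests on 6 of the series' 30 arrays, 3 per group, and covers all 22215 probe sets that are not array controls. Caco-2, a line from a human colorectal adenocarcinoma, takes on features of absorptive enterocytes once confluent. HT29-MTX, derived from human colon adenocarcinoma cells by growth in methotrexate, secretes mucus. All groups held both lines, seeded together at 75% Caco-2 and 25% HT29-MTX and kept on Transwell inserts for 14 days. The exposed wells were given 10 µg/ml of titanium dioxide nanobelts (TiO2-NB) in the apical compartment for 1 h, and the control wells were given fresh medium alone for 1 h. Further groups of 3 arrays enter where named: TiO2-NB at 100 µg/ml for 1 h, multi-walled carbon nanotubes (MWCNT) at 10 µg/ml for 1 h, and TiO2-NB at 10 µg/ml and fresh medium for 24 h. The labels call the arrays of a group biological replicates, but the flasks of each line were pooled before seeding, so the spread between arrays may be smaller than between separate cultures. Both lines are carcinoma cells, and RNA was taken from the mixture, so a change in one line and a shift in the proportion of the lines, or fewer cells of a type and less RNA per cell, cannot be told apart.

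Titanium dioxide nanobelts are long, flat crystals of an oxide that dissolves poorly. Within the first hour after a stimulus, epithelial cells change mainly short-lived transcripts: immediate early transcription factors of the AP-1, EGR and KLF families, phosphatases that switch off MAP kinases, and the inhibitors that NF-kB induces against itself. Differentiated enterocytes also express nuclear receptors, which bind lipids, retinoids and bile acids, and their targets, and clock factors that respond to serum, nutrients and hormones.

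The 6 arrays were alike in overall level. Their medians of the deposited log2 values ran from 6.4567 to 6.4887, and arrays of a group correlated at 0.99786 or more among the controls and 0.99778 or more among the exposed. The probe set for the 5′ end of 18S ribosomal RNA, a gauge of ribosomal RNA carried into the labelling, read 8.61, 8.62 and 8.81 in the controls and 9.70, 10.4 and 8.50 in the exposed arrays. Exposed replicates 1 and 2 were above every control and replicate 3 was below every control, a difference of 0.84 with an exact two-sided permutation p of 0.4, where 3 arrays against 3 cannot give less than 0.1. With this level as a covariate 1336 probe sets were called, against the 1742 reported below. The difference between the 3′ and 5′ probe sets changed by 0.0007 for GAPDH and by 0.014 for ACTB, with exact two-sided permutation p-values of 0.9 and 1. Every exposed array was above every control for 28S 3′, GAPDH 5′ and ACTB 3′. These differences were 0.16, 0.028 and 0.094, each at the smallest exact p of 0.1. The 28S 5′ probe set differed by 0.44, with an exact p of 0.2.

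Promoters of 5 genes described below are shown: those of 4 carry the letters that known regulators of their gene groups bind, and that of FAM13A is shown as the gene with the largest fall. Each is the stretch of 250 bases before the start of the gene, from RefSeq on GRCh38.p14, given 5′ to 3′ on the gene's own strand, with matches to the motif in capitals. NFKBIA, at chr14:35404750-35404999 on the minus strand, holds 1 match to the kappa B motif, and TNFAIP3, at chr6:137867009-137867258 on the plus strand, holds 2. EGR1, at chr5:138465229-138465478 on the plus strand, holds 2 matches to the CArG box, the site of serum response factor.
NFKBIA: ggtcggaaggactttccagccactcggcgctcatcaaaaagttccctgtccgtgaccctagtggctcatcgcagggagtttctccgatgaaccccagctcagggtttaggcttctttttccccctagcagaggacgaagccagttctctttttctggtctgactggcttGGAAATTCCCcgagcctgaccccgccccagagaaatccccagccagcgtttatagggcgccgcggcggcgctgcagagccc
TNFAIP3: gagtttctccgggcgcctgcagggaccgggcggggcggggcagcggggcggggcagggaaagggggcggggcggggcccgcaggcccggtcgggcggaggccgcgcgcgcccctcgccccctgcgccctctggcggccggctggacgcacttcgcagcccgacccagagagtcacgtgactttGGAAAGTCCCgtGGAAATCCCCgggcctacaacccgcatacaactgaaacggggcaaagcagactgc
EGR1: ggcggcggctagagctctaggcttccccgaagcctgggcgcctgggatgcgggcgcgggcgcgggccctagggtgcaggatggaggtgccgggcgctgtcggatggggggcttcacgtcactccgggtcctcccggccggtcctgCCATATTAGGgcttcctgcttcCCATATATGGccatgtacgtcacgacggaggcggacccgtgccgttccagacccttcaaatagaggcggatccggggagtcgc
BHLHE40, at chr3:4979187-4979436 on the plus strand, holds 4 matches to the core ACGTG of hypoxia-inducible factor sites when both strands are read. A pair of these overlap in the E-box CACGTG near the 5′ end. FAM13A, at chr4:89057186-89057435 on the minus strand, holds 1 E-box CACGTG.
BHLHE40: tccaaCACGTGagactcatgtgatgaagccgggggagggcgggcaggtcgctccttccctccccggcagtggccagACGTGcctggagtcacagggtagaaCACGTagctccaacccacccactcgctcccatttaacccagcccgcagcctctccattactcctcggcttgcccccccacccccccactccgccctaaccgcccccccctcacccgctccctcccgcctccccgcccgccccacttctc
FAM13A: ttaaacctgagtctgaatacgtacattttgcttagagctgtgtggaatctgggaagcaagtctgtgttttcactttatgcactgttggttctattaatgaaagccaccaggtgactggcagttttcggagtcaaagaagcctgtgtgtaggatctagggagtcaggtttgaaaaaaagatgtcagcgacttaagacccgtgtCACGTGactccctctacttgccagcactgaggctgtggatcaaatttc
All motifs were searched on both strands, and the E-box contains the ACGTG core. Among all 27305 promoters of the table, 5.05% held the kappa B motif, 1.14% the CArG box, 6.49% the E-box and 18.7% the ACGTG core. Among the 292 promoters of genes that rose in the comparison the shares were 3.42%, 1.03%, 9.93% and 23.3%, and among the 650 of genes that fell they were 4.92%, 1.38%, 9.38% and 25.5%. Among the 9562 promoters of measured genes they were 5.88%, 1.21%, 8.35% and 21.7%. Of the 13 promoters found for the 15 largest falls described below, 0 held the kappa B motif, that of CXCL8 among them. The motif was present in NFKB1, which did not pass, and in SREBF1, which rose. Whether a motif goes with a change was not tested. These matches describe letters and not binding.

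More genes were called as falls than as rises within 1 h of exposure. The same 3 control arrays serve every comparison with control at 1 h, so whatever is particular to them enters each change, and the labels describe no control other than fresh medium. The values are log2 levels, so a difference of 1 is a doubling, and a probe set was called where limma's moderated test gave an adjusted p under 0.05 after Benjamini-Hochberg correction for all of them. Of 22215 probe sets, 1742 (7.84%) were called, of which 579 (2.61%) rose and 1163 (5.24%) fell. With 1 probe set standing for each of 11963 genes, 361 genes (3.02%) rose and 778 (6.5%) fell. The changes were mostly small: 44 of the called probe sets changed by at least 1.5-fold and 7 by at least 2-fold. The exposed arrays lay above all controls in 1283 genes (10.7%) and below them in 1654 (13.8%), and this held for 336 of the genes that rose and 756 of those that fell. The median change over all genes was 0.004, with 6186 genes above 0 and 5777 below. After a further quantile normalization of the arrays 709 probe sets rose and 962 fell. Without control replicate 2 the count of called probe sets was 1026, without control replicate 3 it was 1161, and without exposed replicate 3 it was 1136. Fitted on the 6 arrays alone, in place of the spread shared by all 30, 219 were called.

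The largest fall was in FAM13A. Its levels were 11.028, 11.322 and 11.003 in the controls and 9.713, 9.776 and 9.468 in the exposed arrays, a log2 change of -1.47 ± 0.089 (SE, n = 3 per group, adjusted p = 4.18e-10). The lowest control lay more than a whole log2 unit above the highest exposed array. All 3 of its probe sets fell, with changes of -1.38 to -1.57. KANK1, a scaffold that restrains actin polymerisation at focal adhesions, read 8.85, 8.95 and 8.91 in the controls and 7.90, 7.85 and 7.88 in the exposed arrays. The arrays within each group differed little beside the distance between the groups, and the change was -1.03 ± 0.065 (adjusted p = 5.11e-10). PCK1, the enzyme that commits oxaloacetate to gluconeogenesis, was at 10.04, 10.45 and 10.18 in the controls and 9.25, 9.43 and 8.80 after exposure. Its exposed replicate 3 was the lowest array, the groups did not overlap, and the change was -1.06 ± 0.13 (adjusted p = 1.63e-05).

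Other falls of like size were in RNA-binding, adaptor and transcription factor genes. KHDC4, a KH-domain RNA-binding protein, went from 8.59, 8.47 and 8.51 in the controls to 7.65, 7.37 and 7.61 in the exposed arrays, a change of -0.98 ± 0.081. SLA, an adaptor of Src-family kinase signalling, was at 8.58, 8.72 and 8.52 and then at 7.90, 7.86 and 7.63, a change of -0.81 ± 0.079. In both genes every exposed array lay below every control. MXI1, which pairs with MAX and opposes MYC, read 11.04, 11.40 and 11.07 in the controls and 10.39, 10.50 and 10.19 in the exposed arrays, and its change was -0.81 ± 0.084 (adjusted p = 1.13e-06). Control replicate 2 was the highest array and exposed replicate 3 the lowest. Of the 15 largest falls, CXCL8, EGR1, PPARG, RARB and CYP26A1 are described with their gene groups. The others, GRAMD2B, N4BP2L1, the ubiquitin ligase family member TRIM52 and the zinc finger factor ZKSCAN1, had changes of -0.77, -0.76, -0.71 and -0.71. Only genes without overlap between groups could enter the 15 largest falls and the 15 largest rises. The separation of groups in these genes therefore follows from the choice.

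**Figure D1:**
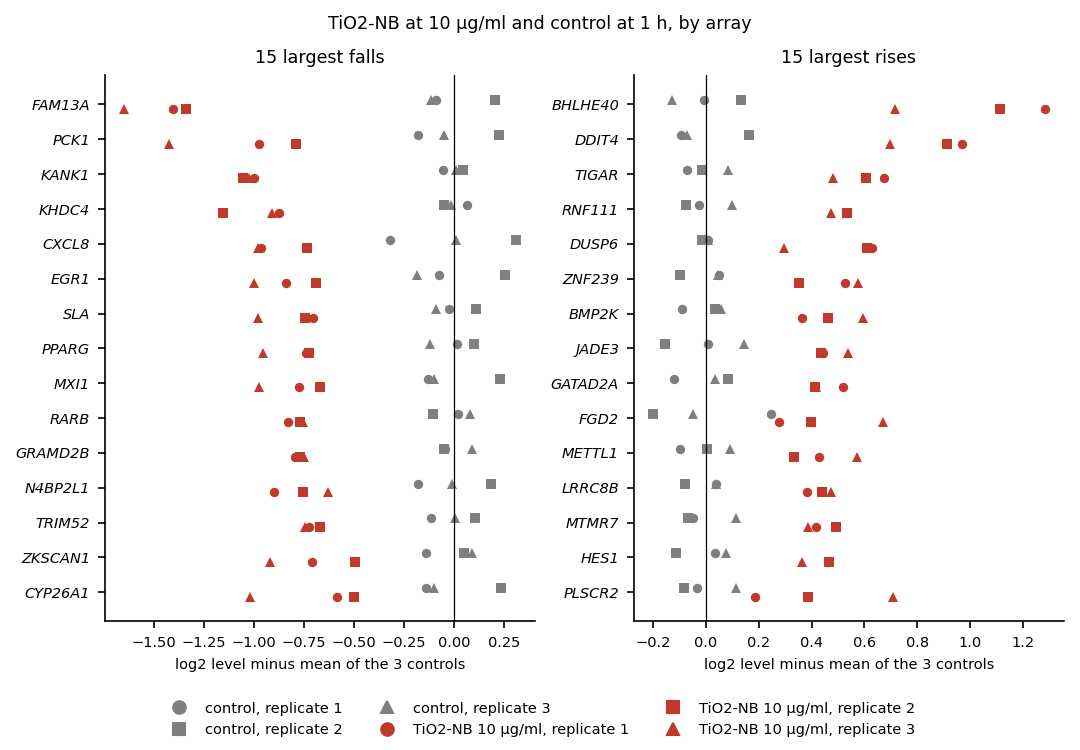
Each row is a gene among the 15 largest falls (left) or the 15 largest rises (right), drawn from called genes in which the 2 groups of 3 arrays do not overlap. The horizontal axis is the log2 level minus the mean of the 3 controls; grey points are controls, red points exposed arrays, and shapes give the replicate number. FAM13A extends furthest to the left, at -1.47 on average, and BHLHE40 furthest to the right, at 1.04.

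The largest rise was in BHLHE40, a repressor of the circadian clock that also responds to low oxygen and growth factors. It read 9.00, 9.14 and 8.88 in the controls and 10.29, 10.12 and 9.72 in the exposed arrays, a change of 1.04 ± 0.11 (adjusted p = 1.25e-06). Exposed replicate 3 was the lowest of the exposed arrays and still above the highest control. Both of its probe sets rose. DDIT4, an inhibitor of mTORC1 induced by many stresses and by glucocorticoids, was at 9.35, 9.61 and 9.37 in the controls and 10.41, 10.36 and 10.14 after exposure. The groups were well apart, and the change was 0.86 ± 0.11 (adjusted p = 2.93e-05). TIGAR, a phosphatase that turns glucose flux from glycolysis towards the pentose phosphate pathway, read 8.41, 8.47 and 8.57 and then 9.16, 9.09 and 8.97. Each exposed array exceeded each control, with a change of 0.59 ± 0.068 (adjusted p = 4.96e-06).

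Several further rises were in regulators of signalling and chromatin. RNF111, a ubiquitin ligase that removes repressors of SMAD signalling, was at 8.10, 8.05 and 8.23 in the controls and 8.66, 8.66 and 8.60 in the exposed arrays, a change of 0.51 ± 0.054 (adjusted p = 1.22e-06). Its exposed arrays lay close together and above all controls. HES1, the repressor downstream of Notch, read 10.46, 10.31 and 10.50 and then 10.88, 10.89 and 10.79, a change of 0.43 ± 0.069 (adjusted p = 0.00022). JADE3, a scaffold of a histone acetyltransferase complex, the NuRD subunit GATAD2A and the tRNA methyltransferase METTL1 changed by 0.47, 0.45 and 0.44. The kinase BMP2K, the zinc finger gene ZNF239 and LRRC8B, a subunit of volume-regulated anion channels, changed by 0.47, 0.48 and 0.43. FGD2, MTMR7 and PLSCR2, at 0.45, 0.43 and 0.43, were not among the 14810 probe sets kept by a filter on low mean level, and the call of FGD2 was lost under 9 of the 14 settings in which it was tested.

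The gene lists below are read against all measured genes, of which 3.02% rose and 6.5% fell, and the shares in parentheses are those of a list that rose and fell. The lists were chosen with earlier results of these data known. A share above that of all genes may therefore follow in part from the choice of members. Each list counts only the probe set that stands for a gene. Members are named mainly for the smallest p of their list, so separate groups in them follow in part from that choice. Over all genes the exposed arrays lay above all controls in 10.7% and below them in 13.8%. The calls of the lists depended on how many arrays entered the fit. Fitted on the 6 arrays alone, 0.226% of all genes rose and 1.02% fell, and 41 of the 118 called genes that are named here kept their call. On the 15 arrays of 1 h the shares were 1.36% and 3.65%, with 91 kept. With the 18S level as a covariate, called the 18S covariate below, they were 2.23% and 4.99%, with 100 kept.

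NF-kB, a transcription factor held in the cytosol by inhibitors of the IkB family, induces its own inhibitors and inflammatory genes. Of 35 measured members of its list, 1 rose and 6 fell (2.86% and 17.1%), with a median change of -0.107. The NF-kB list had 0 rises and 4 falls on the 6 arrays alone, 1 rise and 5 falls on the 15 arrays of 1 h and 1 rise and 5 falls with the 18S covariate. NFKBIA, which encodes IkB alpha, read 9.93, 10.11 and 10.01 in the controls and 9.38, 9.47 and 9.34 in the exposed arrays, and fell with a change of -0.62 ± 0.054 (adjusted p = 8.54e-08). TNFAIP3, the ubiquitin-editing enzyme A20 that ends NF-kB signalling, was at 8.34, 8.47 and 8.47 and then at 7.95, 7.96 and 7.88, a change of -0.50 ± 0.048 (adjusted p = 4.18e-07). These are the genes whose promoters with kappa B matches are printed above, and in both every exposed array lay below every control. CXCL8, the neutrophil-attracting chemokine interleukin 8, read 6.71, 7.34 and 7.04 in the controls and 6.07, 6.29 and 6.05 after exposure, a change of -0.89 ± 0.15 (adjusted p = 0.000444). Its controls were spread more widely than its exposed arrays and all lay above them, and both of its probe sets fell. IL6ST, the shared receptor subunit of the interleukin 6 family, fell with a change of -0.22 ± 0.049, but of its 5 probe sets the others did not pass. The member that rose, named after its value was seen, was RELB, a subunit of the non-canonical pathway, at 0.36 ± 0.080. The canonical subunits NFKB1 and RELA had changes of 0.053 ± 0.050 and 0.05 ± 0.048 and did not pass.

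Of the 34 measured AP-1, EGR and KLF factors, 3 rose and 5 fell (8.82% and 14.7%), with a median of -0.034; without control replicate 1, 8 fell. The immediate early factors had 1 rise and 1 fall on the 6 arrays alone, 2 rises and 6 falls on the 15 arrays of 1 h and 4 rises and 4 falls with the 18S covariate. EGR1, the zinc finger factor with the CArG boxes shown above, read 10.19, 10.52 and 10.08 in the controls and 9.42, 9.57 and 9.26 in the exposed arrays. The groups were separate, with a change of -0.84 ± 0.12 (adjusted p = 4.52e-05), and both of its probe sets fell. JUN, the AP-1 subunit, was at 10.10, 10.57 and 10.25 and then at 9.91, 9.90 and 9.67, a change of -0.48 ± 0.090 (adjusted p = 0.00121). Control replicate 2 was the highest array for JUN as well as for EGR1. FOS, its usual partner, had a change of -0.062 ± 0.10 with overlapping groups (adjusted p = 0.799). MYC, the growth-promoting factor counted here with the immediate early genes, went from 10.00, 9.89 and 9.91 to 10.45, 10.32 and 10.25, a rise of 0.41 ± 0.060 (adjusted p = 9.17e-05), while KLF11 fell with a change of -0.32 ± 0.058. In the list of 12 MYC network genes MYC rose and MXI1 fell (8.33% and 8.33%), with a median of 0.0002, and MAX, their common partner, had a change of -0.15 ± 0.047 and did not pass. In that list 2 fell without exposed replicate 2 and 3 without control replicate 1.

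Genes that restrain the ERK and other MAP kinase pathways moved both ways. Of 30 measured EGF ligands, ERBB receptors and brakes on ERK, 4 rose and 2 fell (13.3% and 6.67%), with a median of 0.015. Members of this list had 1 rise and 0 falls on the 6 arrays alone, 2 rises and 2 falls on the 15 arrays of 1 h and 3 rises and 2 falls with the 18S covariate. DUSP6, the phosphatase specific for ERK, read 10.88, 10.86 and 10.88 in the controls and 11.51, 11.48 and 11.17 in the exposed arrays. The controls were nearly identical and exposed replicate 3 was the lowest of the exposed arrays, still above them; the change was 0.51 ± 0.093 (adjusted p = 0.000851) and all 3 probe sets rose. DUSP1, a phosphatase of p38 and JNK, went from 9.54, 9.95 and 9.56 to 9.23, 9.37 and 8.97, a fall of -0.49 ± 0.098 (adjusted p = 0.00214). DUSP10, which also acts on p38 and JNK, fell with a change of -0.53 ± 0.13, SPRY1, an inhibitor of receptor tyrosine kinase signalling, rose at 0.26 ± 0.061, and EGFR had a change of -0.18 ± 0.070 and did not pass. Without exposed replicate 1 or 2 or control replicate 2 or 3, 2 members rose, and without exposed replicate 3 or control replicate 2, 1 fell.

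Of 22 measured nuclear receptors, 1 rose and 8 fell (4.55% and 36.4%), with a median of -0.04. The receptors had 0 rises and 2 falls on the 6 arrays alone, 0 rises and 4 falls on the 15 arrays of 1 h and 0 rises and 6 falls with the 18S covariate. PPARG, the lipid-activated receptor of differentiated colon epithelium, read 9.57, 9.65 and 9.43 in the controls and 8.81, 8.83 and 8.59 in the exposed arrays, a change of -0.81 ± 0.064 (adjusted p = 2.04e-08). The highest exposed array lay below the lowest control by more than the spread within either group. RARB, a retinoic acid receptor, was at 6.80, 6.68 and 6.86 and then at 5.95, 6.01 and 6.02, with a change of -0.79 ± 0.092 (adjusted p = 6.56e-06). The groups did not overlap, but of its 5 probe sets 1 fell and the others did not pass. RXRA, the partner of both, went from 9.26, 9.36 and 9.29 to 9.02, 9.12 and 9.10, a change of -0.22 ± 0.044, and NR5A2, a regulator of bile acid and steroid genes in the gut, changed by -0.21 ± 0.049. CYP26A1, which degrades retinoic acid, read 6.71, 7.08 and 6.75 and then 6.26, 6.35 and 5.83, a change of -0.70 ± 0.12 (adjusted p = 0.000664); its exposed replicate 3 was the lowest array, and the call was lost when the 6 arrays were fitted alone. Without exposed replicate 3, 5 receptors fell, and without control replicate 2 or 3, 4. The rise was in VDR, the vitamin D receptor, which was named after its value was seen, at 0.19 ± 0.055, and it was not called without exposed replicate 1 or 2 or any 1 control.

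Among 17 measured circadian clock genes, 4 rose and 3 fell (23.5% and 17.6%), with a median of 0.117. The clock genes had 1 rise and 0 falls on the 6 arrays alone, 3 rises and 3 falls on the 15 arrays of 1 h and 3 rises and 3 falls with the 18S covariate. Beside BHLHE40, NFIL3, a repressor of D-box genes, went from 8.71, 8.89 and 8.89 to 9.30, 9.14 and 9.12, a rise of 0.36 ± 0.061 (adjusted p = 0.000462). DBP, an activator at the same D-box sites, read 7.19, 7.48 and 7.29 in the controls and 6.81, 6.93 and 6.95 in the exposed arrays, a fall of -0.43 ± 0.076 (adjusted p = 0.000722). In both genes the groups were separate, in opposite directions. RORA, a nuclear receptor that activates the clock, was at 5.84, 6.06 and 6.04 and then 5.63, 5.59 and 5.44, a change of -0.42 ± 0.085. PER2, of the negative limb, rose with 0.29 ± 0.060, and CLOCK, of the positive limb, fell with -0.30 ± 0.083.

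In the list of hypoxia response and glycolysis genes, 3 of 35 measured rose and 7 fell (8.57% and 20%), with a median of -0.059; without exposed replicate 3 or control replicate 2, 4 fell. The hypoxia list had 2 rises and 3 falls on the 6 arrays alone, 2 rises and 4 falls on the 15 arrays of 1 h and 2 rises and 7 falls with the 18S covariate. BHLHE40 and DDIT4 were among the rises, and MXI1 among the falls. KDM3A, a histone demethylase induced by hypoxia-inducible factors, read 9.77, 9.97 and 9.87 in the controls and 9.29, 9.33 and 9.22 in the exposed arrays. Its groups lay far apart for their spread, with a change of -0.59 ± 0.050 (adjusted p = 6.56e-08). EGLN1, the oxygen-sensing hydroxylase, fell with -0.54 ± 0.075, and SLC2A3, a glucose transporter, with -0.42 ± 0.077; both were named after their values were seen. HIF1A, the regulated subunit of the factor itself, and VEGFA, its target that drives vessel growth, had changes of 0.062 ± 0.040 and 0.025 ± 0.069 and did not pass. The members moved both ways, so the list's count describes no single direction.

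The aryl hydrocarbon receptor is a ligand-activated factor that induces drug-metabolising enzymes. Of 10 measured members of its list, 4 rose and 0 fell (40% and 0%), with a median of 0.147 and 5 members at an unadjusted p under 0.05. AHR itself read 8.43, 8.30 and 8.54 in the controls and 8.75, 8.94 and 8.77 in the exposed arrays, a change of 0.40 ± 0.059 (adjusted p = 0.000101). Every exposed array lay above every control. CYP1A1, its best known target, went from 7.45, 7.32 and 7.33 to 7.74, 7.57 and 7.76, a change of 0.33 ± 0.11 that did not pass (adjusted p = 0.0596), also without overlap. CYP1A2 rose with 0.21 ± 0.063, NFE2L2 with 0.19 ± 0.046 and SLC7A5, an amino acid transporter, with 0.21 ± 0.057. Without exposed replicate 1 or 3 or control replicate 2, 2 rises were called. This list had 0 rises and 0 falls on the 6 arrays alone, 1 rise and 0 falls on the 15 arrays of 1 h and 4 rises and 0 falls with the 18S covariate.

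NFE2L2 encodes NRF2, the factor that induces antioxidant genes. Of 32 measured members of its list, NFE2L2 alone rose and 2 fell (3.12% and 6.25%), shares close to those of all genes, with a median of 0.016. The NRF2 list had 0 rises and 0 falls on the 6 arrays alone, 0 rises and 0 falls on the 15 arrays of 1 h and 2 rises and 2 falls with the 18S covariate. The falls were in ABCC2, an export pump for conjugates, at -0.23 ± 0.056, and CAT, which encodes catalase, at -0.12 ± 0.038. They were not called without exposed replicate 3 or control replicate 2, 1 of them was called without exposed replicate 1 or control replicate 3, and the rise was not called without exposed replicate 2, while 2 members rose without exposed replicate 1 or 3. HMOX1, the inducible haem oxygenase, read 9.21, 9.32 and 9.12 in the controls and 9.44, 9.53 and 9.23 in the exposed arrays. Exposed replicate 3 lay inside the range of the controls and the change of 0.18 ± 0.090 did not pass (adjusted p = 0.243). SLC7A11, the cystine transporter, had 0.24 ± 0.077 by the probe set that stands for it (adjusted p = 0.0513). Another of its 3 probe sets rose with 0.29 ± 0.083 (adjusted p = 0.033). Of 11 measured metallothioneins and zinc response genes limma called 0, with 1 at an unadjusted p under 0.05. All 11 changes were above 0, from 0.0125 to 0.181, with a median of 0.082. Among all 11963 genes 6186 changes were above 0, and a shared direction of this list was not tested. MT2A had a change of 0.069 ± 0.061, MT1E of 0.18 ± 0.086 and MTF1, the zinc-sensing factor, of 0.07 ± 0.067.

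The integrated stress response, in which ATF4 is translated when protein synthesis is checked, had 5 of 25 measured genes that rose and 2 that fell (20% and 8%), with a median of 0.078. Its genes had 1 rise and 1 fall on the 6 arrays alone, 1 rise and 2 falls on the 15 arrays of 1 h and 7 rises and 2 falls with the 18S covariate. DDIT4 was one of the rises, and SLC3A2, the heavy chain of amino acid exchangers, another at 0.15 ± 0.036. The falls were STC2, a secreted glycoprotein, from 8.63, 8.98 and 8.73 to 8.29, 8.27 and 8.12, and VLDLR, a lipoprotein receptor, from 5.97, 6.14 and 6.13 to 5.78, 5.72 and 5.16. Their changes were -0.56 ± 0.10 and -0.53 ± 0.11, with no overlap. ATF4 and DDIT3, the factors of the pathway, had changes of 0.086 ± 0.043 and 0.13 ± 0.095 and did not pass. Leaving out any 1 array other than control replicate 2 gave between 1 and 3 rises, the fewest without control replicate 3. Of 21 genes of the unfolded protein response, PDIA3 rose with 0.13 ± 0.035 and DNAJB9 fell with -0.20 ± 0.047 (4.76% and 4.76%), a median of 0.0029; HSPA5, the chaperone BiP, had 0.11 ± 0.035 and XBP1 0.12 ± 0.049, and neither passed. PDIA3 was not called without exposed replicate 1 or 2 or control replicate 1 or 2, and DNAJB9 not without control replicate 2, while 2 members fell without exposed replicate 2. The unfolded protein response had 0 rises and 0 falls on the 6 arrays alone, 0 rises and 1 fall on the 15 arrays of 1 h and 1 rise and 0 falls with the 18S covariate.

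Cytosolic chaperones, which fold proteins and are induced by heat shock factor, fell in 4 of 16 measured members and rose in 1 (6.25% and 25%), with a median of -0.065. The chaperones had 0 rises and 1 fall on the 6 arrays alone, 0 rises and 3 falls on the 15 arrays of 1 h and 1 rise and 4 falls with the 18S covariate. CHORDC1, a partner of HSP90, read 9.27, 9.01 and 9.37 in the controls and 8.72, 8.79 and 8.87 in the exposed arrays, a change of -0.42 ± 0.074 (adjusted p = 0.000599). HSPA1L, a member of the HSP70 family, went from 6.26, 6.38 and 6.29 to 5.84, 5.93 and 6.01, a change of -0.38 ± 0.069. HSPH1, which helps HSP70 release nucleotide, fell with -0.25 ± 0.052. In these 3 genes no exposed array reached the lowest control. This held for 5 of the 16 measured members and for 13.8% of all genes. HSPA4 rose with 0.16 ± 0.039, which was not called without exposed replicate 1, and HSF1, the heat shock factor, had -0.095 ± 0.041 and did not pass.

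Signalling by TGF-beta, through SMAD factors, and by Notch controls differentiation of the crypt epithelium. Of 28 measured genes 5 rose and 2 fell (17.9% and 7.14%), with a median of -0.028. Both pathways together had 3 rises and 1 fall on the 6 arrays alone, 4 rises and 2 falls on the 15 arrays of 1 h and 5 rises and 2 falls with the 18S covariate. JAG1, a ligand of Notch, read 10.70, 10.73 and 10.61 in the controls and 11.04, 11.06 and 10.96 in the exposed arrays, a change of 0.34 ± 0.052 (adjusted p = 0.000142). Together with RNF111 and HES1 it lay above all controls on every exposed array. CCN1, a matricellular protein induced by YAP, went from 8.02, 7.96 and 8.12 to 7.72, 7.75 and 7.60, a fall of -0.34 ± 0.052 (adjusted p = 0.000123). SMAD3, the receptor-activated SMAD, was at 8.58, 8.78 and 8.62 and then at 8.25, 8.05 and 8.22, a fall of -0.49 ± 0.084 (adjusted p = 0.000439), and was named after its values were seen. Both falls were free of overlap.

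Splicing regulators of the CLK, SRPK and SR families, in which the kinases phosphorylate the SR proteins, gave 2 rises and 5 falls among 29 measured (6.9% and 17.2%), with a median of -0.01. The splicing regulators had 1 rise and 2 falls on the 6 arrays alone, 1 rise and 4 falls on the 15 arrays of 1 h and 2 rises and 5 falls with the 18S covariate. CLK1, a kinase that autoregulates its own splicing, read 7.41, 7.50 and 7.52 in the controls and 7.92, 7.95 and 7.82 in the exposed arrays, a rise of 0.41 ± 0.067 (adjusted p = 0.000249). PNISR, an SR-related nuclear protein, went from 8.97, 9.00 and 8.99 to 8.42, 8.55 and 8.44, a fall of -0.52 ± 0.098 (adjusted p = 0.0012). The groups were apart in both. RBM5, a splicing factor linked to apoptosis genes, and SRSF5, an SR protein, fell with -0.28 ± 0.048 and -0.22 ± 0.044. Without exposed replicate 1 or 2 or control replicate 1 or 2, 1 rise was called.

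Ribosome biogenesis genes, which make and process ribosomal RNA, rose in 5 and fell in 2 of 24 measured (20.8% and 8.33%), with a median of 0.076. Ribosome biogenesis had 1 rise and 0 falls on the 6 arrays alone, 5 rises and 0 falls on the 15 arrays of 1 h and 5 rises and 2 falls with the 18S covariate. RRS1, an assembly factor of the large subunit, read 9.51, 9.36 and 9.51 in the controls and 9.82, 9.73 and 9.84 in the exposed arrays, a change of 0.34 ± 0.046 (adjusted p = 4.26e-05). NOP2, a ribosomal RNA methyltransferase, went from 7.99, 8.03 and 8.00 to 8.38, 8.26 and 8.43, a change of 0.35 ± 0.057. WDR43 and the helicase DDX21 rose with 0.27 ± 0.042 and 0.30 ± 0.051. In these 4 genes, chosen by smallest p, every exposed array was above every control. This held for 10 of the 24 measured members and for 10.7% of all genes. The falls numbered 0 without exposed replicate 3 and 1 without exposed replicate 2 or any 1 control.

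Of 39 DNA replication genes, 4 rose and 1 fell (10.3% and 2.56%), with a median of 0.09. DNA replication had 0 rises and 0 falls on the 6 arrays alone, 2 rises and 1 fall on the 15 arrays of 1 h and 1 rise and 1 fall with the 18S covariate. MCM6, a subunit of the replicative helicase, rose with 0.24 ± 0.059, CCNE1, the cyclin of S phase entry, with 0.21 ± 0.061, and ORC2, of the origin recognition complex, fell with -0.26 ± 0.041. Without exposed replicate 3 or control replicate 2 no rise of this list was called, and without exposed replicate 1, 2 were. Among 33 mitosis genes 0 rose and 3 fell (0% and 9.09%), with a median of -0.035 and 5 at an unadjusted p under 0.05. These were HMMR, a spindle protein, at -0.28 ± 0.062, the kinesin KIF20A at -0.24 ± 0.064 and the kinase AURKA at -0.16 ± 0.049, and 1 fall was called without exposed replicate 1 or 2 or control replicate 1 or 3. The mitosis genes had 0 rises and 0 falls on the 6 arrays alone, 0 rises and 2 falls on the 15 arrays of 1 h and 0 rises and 1 fall with the 18S covariate.

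Interferon response genes, induced through STAT and IRF factors, rose in 0 and fell in 5 of 19 measured (0% and 26.3%), with a median of -0.116 and 7 at an unadjusted p under 0.05. IFIT1, which binds viral RNA, read 7.45, 7.65 and 7.77 in the controls and 7.05, 7.21 and 6.96 in the exposed arrays, a change of -0.55 ± 0.11 (adjusted p = 0.00173). RIGI, the cytosolic RNA sensor, went from 5.81, 5.80 and 6.07 to 5.59, 5.39 and 5.28, a change of -0.47 ± 0.10 (adjusted p = 0.00343). Both were below all controls on every exposed array. The factors IRF7 and IRF2 fell with -0.24 ± 0.055 and -0.39 ± 0.092. Without control replicate 2, 3 falls were called. The interferon list had 0 rises and 0 falls on the 6 arrays alone, 0 rises and 3 falls on the 15 arrays of 1 h and 0 rises and 3 falls with the 18S covariate.

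Of 25 FOXO, insulin signalling and gluconeogenesis genes, 1 rose and 2 fell (4% and 8%), shares close to those of all genes, with a median of 0.032. Beside PCK1, TXNIP, an inhibitor of thioredoxin and glucose uptake, fell with -0.14 ± 0.040, and KLF15, a factor of amino acid and glucose metabolism, rose from 6.20, 6.22 and 6.04 to 6.51, 6.38 and 6.56, a change of 0.33 ± 0.067. FOXO1 had -0.09 ± 0.057 and did not pass. Without exposed replicate 1 or 3 or control replicate 2 or 3, 1 fall was called, and without control replicate 3, 2 rises. The FOXO list had 0 rises and 1 fall on the 6 arrays alone, 1 rise and 1 fall on the 15 arrays of 1 h and 1 rise and 3 falls with the 18S covariate. Of 21 mTORC1, AMPK and autophagy genes, 2 rose and 2 fell (9.52% and 9.52%), with a median of 0.038: SQSTM1, the autophagy receptor p62, rose from 9.57, 9.61 and 9.53 to 9.85, 9.79 and 9.80, and TSC1, an inhibitor of mTORC1, fell from 8.56, 8.62 and 8.52 to 8.27, 8.26 and 8.28. Their changes were 0.24 ± 0.037 and -0.30 ± 0.055, with separate groups, and 1 fall was called without exposed replicate 1 or 3 or control replicate 2 or 3. The mTORC1 list had 1 rise and 1 fall on the 6 arrays alone, 2 rises and 1 fall on the 15 arrays of 1 h and 2 rises and 2 falls with the 18S covariate. Of 19 sterol and fatty acid synthesis genes, 1 rose and 2 fell (5.26% and 10.5%), with a median of 0.018. The lipid synthesis genes had 1 rise and 0 falls on the 6 arrays alone, 1 rise and 1 fall on the 15 arrays of 1 h and 1 rise and 1 fall with the 18S covariate. SREBF1, the lipogenic factor, went from 7.92, 7.85 and 7.72 to 8.24, 8.25 and 8.17, a rise of 0.39 ± 0.053 (adjusted p = 3.36e-05), and INSIG2, which retains that factor in the endoplasmic reticulum, from 10.29, 10.69 and 10.32 to 9.84, 9.96 and 9.60, a fall of -0.63 ± 0.093 (adjusted p = 9.17e-05). These groups were apart as well; 1 fall was called without exposed replicate 2 or 3 or control replicate 2 or 3, and 2 rises without control replicate 1 or 2.

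Among 17 p53 genes 2 rose, TIGAR and BAX, and 2 fell, PLK2 and XPC (11.8% and 11.8%), with a median of -0.027. The p53 genes had 2 rises and 0 falls on the 6 arrays alone, 2 rises and 1 fall on the 15 arrays of 1 h and 2 rises and 2 falls with the 18S covariate. BAX, which permeabilises mitochondria, read 8.27, 8.17 and 8.30 in the controls and 8.69, 8.62 and 8.59 in the exposed arrays, a change of 0.39 ± 0.066 (adjusted p = 0.000469). The classical targets CDKN1A and MDM2 had 0.046 ± 0.073 and -0.16 ± 0.078 and did not pass. The falls numbered 4 without exposed replicate 2, 0 without exposed replicate 3 and 1 without control replicate 3. Of 17 genes of the BCL2 family and cell death, BAX rose and MCL1, CFLAR and BNIP3L fell (5.88% and 17.6%), with changes of -0.15, -0.15 and -0.18 for the falls and a median of -0.016. None of these falls was called without exposed replicate 3 or control replicate 2, and 2 members rose without control replicate 1. MCL1 fell in 1 of its 5 probe sets, CFLAR in 1 of 11 and BNIP3L in 1 of 2, and the groups of BNIP3L overlapped. Both probe sets of BAX rose. The cell death list had 1 rise and 0 falls on the 6 arrays alone, 1 rise and 0 falls on the 15 arrays of 1 h and 1 rise and 3 falls with the 18S covariate.

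Among structural genes, the actin list held FAM13A and KANK1. It was drawn up with earlier results of these data known, so its share of falls may follow in part from including these genes. Of 33 actin and focal adhesion genes 1 rose and 4 fell (3.03% and 12.1%), with a median of 0.022, and beside FAM13A and KANK1 the falls were the GTPase RHOB, at -0.46 ± 0.12, and the kinase ROCK1, at -0.21 ± 0.064. The rise was CDC42, at 0.17 ± 0.052, named after its value was seen and not called without exposed replicate 1 or 2 or control replicate 2 or 3, while 2 members rose without control replicate 1; without exposed replicate 3 or control replicate 2, 2 members fell. The actin list had 0 rises and 2 falls on the 6 arrays alone, 0 rises and 2 falls on the 15 arrays of 1 h and 0 rises and 3 falls with the 18S covariate. Of 21 junction genes 2 rose and 0 fell (9.52% and 0%), with a median of 0.03 and 5 at an unadjusted p under 0.05. TJP1, the tight junction scaffold ZO-1, went from 9.94, 9.91 and 10.01 to 10.20, 10.24 and 10.14, a change of 0.24 ± 0.055, and the adhesion protein NECTIN2 had 0.16 ± 0.034; without control replicate 1, 1 member fell. The junction genes had 0 rises and 0 falls on the 6 arrays alone, 1 rise and 0 falls on the 15 arrays of 1 h and 2 rises and 0 falls with the 18S covariate. Of 29 endocytosis genes 0 rose and 1 fell (0% and 3.45%), EPS15, an adaptor of clathrin-coated pits, at -0.17 ± 0.052, with 5 at an unadjusted p under 0.05, and EPS15 was not called without exposed replicate 1 or 3 or control replicate 2 or 3, nor in any of the fits on fewer arrays or with the 18S covariate. Of 24 lysosome genes limma called 0, with 5 at an unadjusted p under 0.05 and a median of -0.03, and 1 fell without control replicate 1. Of 35 oxidative phosphorylation genes it called 0, with 1 at an unadjusted p under 0.05 and a median of -0.0056. SDHC, a member, has 4 probe sets, of which 1 that does not stand for it rose with 0.24 ± 0.066 (adjusted p = 0.026).

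**Figure D2:**
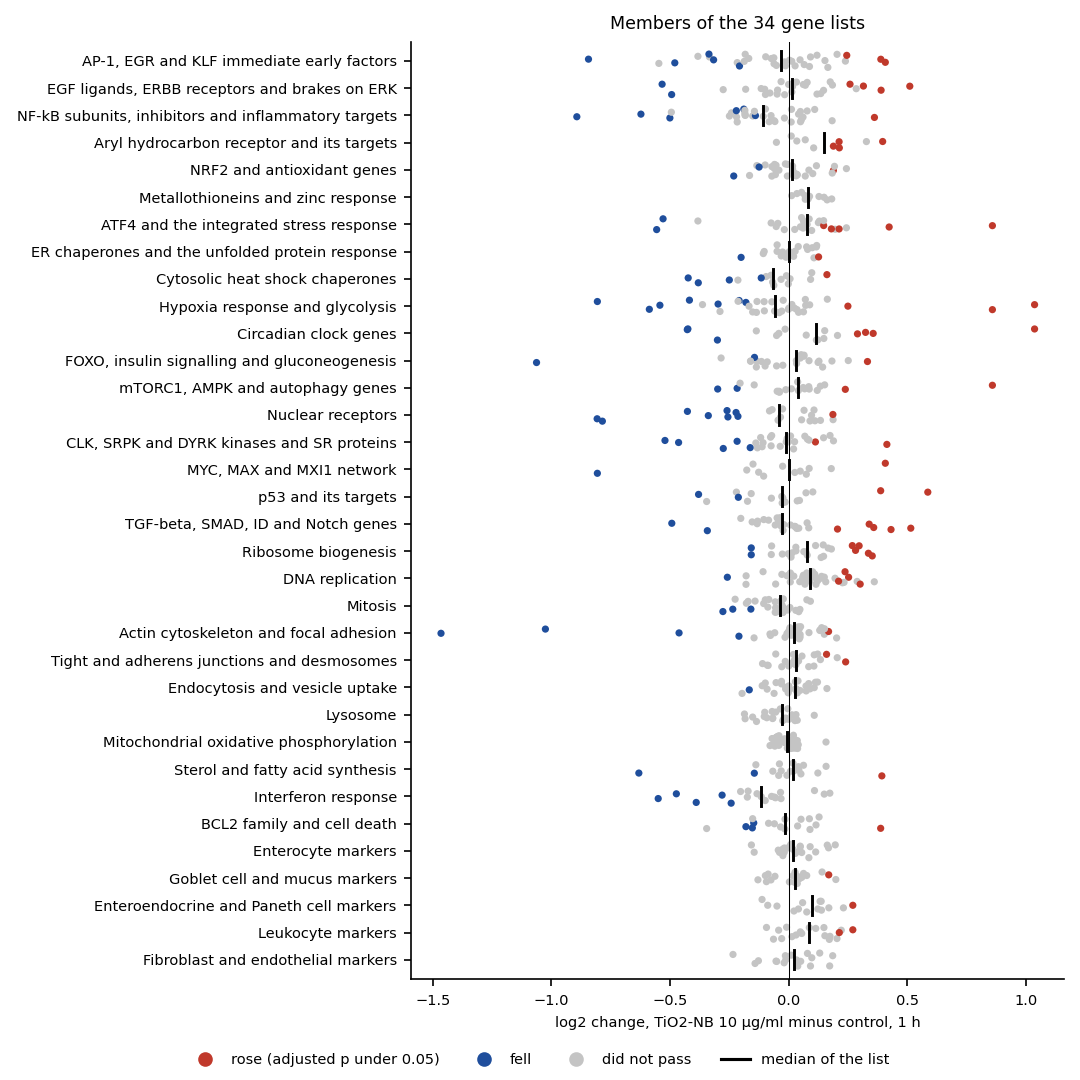
Each point is the representative probe set of a measured gene, placed by its log2 change between TiO2-NB at 10 µg/ml and control at 1 h, with 1 horizontal band for each of 34 gene lists and a black bar at the list's median. Red points rose, blue points fell and grey points did not pass the adjusted p of 0.05; the vertical scatter within a band has no meaning. FAM13A and KANK1 are the far left points of the actin band, and BHLHE40 is the far right point of the clock and hypoxia bands.

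Markers of the labelled cell types were examined next. Of 23 enterocyte markers limma called 0, with 3 at an unadjusted p under 0.05 and a median of 0.018, and 1 rose without exposed replicate 3. Their mean level per array was 9.77 to 9.85 in both groups. VIL1, the brush border protein villin, read 11.87, 11.96 and 11.82 in the controls and 11.87, 11.91 and 11.76 in the exposed arrays. Of 19 goblet cell and mucus markers 1 rose, MUC13, a membrane mucin, at 0.17 ± 0.048, with a median of 0.027 and a mean level of 8.12 to 8.19 in the controls and 8.17 to 8.18 in the exposed arrays; it was not called without exposed replicate 1 or 2 or control replicate 1, on the 6 arrays or on the 15 arrays of 1 h, or with the 18S covariate. The secreted mucins MUC2 and MUC5AC read 6.18, 6.00 and 6.11 and 6.67, 6.53 and 6.63 in the controls, with changes of -0.075 ± 0.070 and 0.027 ± 0.084 that did not pass. The table carries no detection call, so these levels do not show by themselves whether a transcript was present.

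Markers of cells that the co-culture should lack were examined in the same way. Of 19 leukocyte markers 2 rose, LYZ and NKG7 (10.5% and 0%), at 0.27 ± 0.077 and 0.21 ± 0.066, with a median of 0.087, and the list's mean level was 5.73 to 5.85 in the controls and 5.87 to 5.91 in the exposed arrays. LYZ averaged 10.98 in the controls, the highest level of a list with a median of 5.27, and NKG7 averaged 4.63. The rise of LYZ was thus in an abundant transcript and does not by itself show leukocytes or Paneth cells. PTPRC, the common leukocyte antigen, read 3.53, 3.71 and 3.63 in the controls and 3.65, 3.77 and 4.12 in the exposed arrays, and on this log2 scale no marker is at 0. LYZ was also the only call among 14 enteroendocrine and Paneth cell markers, which had a median of 0.1 and a mean level of 4.98 to 5.11 in the controls and 5.06 to 5.18 in the exposed arrays. Without any 1 of the 6 arrays at most 1 leukocyte marker was called. Leukocyte markers had 0 rises and 0 falls on the 6 arrays alone, 2 rises and 0 falls on the 15 arrays of 1 h and 1 rise and 0 falls with the 18S covariate. LYZ was not called as an enteroendocrine and Paneth marker without control replicate 2 or any 1 exposed array, or on the 6 arrays alone. Of 18 fibroblast and endothelial markers limma called 0, with 2 at an unadjusted p under 0.05, a median of 0.022 and a mean level of 5.50 to 5.55 in the controls and 5.51 to 5.55 in the exposed arrays. DCN, on this list, rose by a probe set that does not stand for it, with overlapping groups. The part of any other cell type in the changes above was not tested.

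Raising the dose of TiO2-NB to 100 µg/ml was set against 10 µg/ml at the same hour. Of 22215 probe sets limma called 0 (0%), with 1427 at an unadjusted p under 0.05, and 0 were called in each alternative run. The 95% interval of the difference, 100 minus 10 µg/ml, ran from -0.053 to 0.31 for FAM13A, from -0.12 to 0.15 for KANK1 and from -0.20 to 0.059 for PPARG. For BHLHE40 it ran from -0.00097 to 0.45 and for DDIT4 from 0.059 to 0.53, so that for these genes the data allow a further rise at the higher dose. NFKBIA, with an interval from -0.13 to 0.092, was held more narrowly. Levels at 100 µg/ml were 9.82, 9.68 and 9.85 for FAM13A and 10.79, 10.63 and 10.37 for DDIT4.

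MWCNT at 10 µg/ml differed from TiO2-NB at 10 µg/ml after 1 h in 15 probe sets (0.0675%), 9 of them higher and 6 lower with MWCNT. Without exposed replicate 1 or MWCNT replicate 1, 0 were called, without exposed replicate 3 or MWCNT replicate 3, 1, and without MWCNT replicate 2, 2. NPPB, which encodes a natriuretic peptide, read 6.49, 6.51 and 6.64 in the controls, 6.22, 6.29 and 6.09 with TiO2-NB and 5.50, 5.79 and 5.61 with MWCNT. The difference between the particles was -0.57 ± 0.11 (adjusted p = 0.0421), and its change with TiO2-NB against control was -0.35 ± 0.11 (adjusted p = 0.047). GRPR, a receptor for gastrin-releasing peptide, and NENF, a secreted neurotrophic factor, were lower with MWCNT than with TiO2-NB, at -0.33 ± 0.063 and -0.23 ± 0.043. ZNF623 was higher with MWCNT, at 0.45 ± 0.077. None of the 15 largest rises and 15 largest falls was among these calls, and for FAM13A the difference between the particles was 0.31 ± 0.089 (adjusted p = 0.153), with an interval from 0.12 to 0.49. For KANK1 the interval was from -0.0045 to 0.26, for PPARG from -0.11 to 0.16 and for TIGAR from -0.14 to 0.14.

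After 24 h at the same dose the changes of the first hour were largely absent. Against the 24 h control, 13 probe sets (0.0585%) were called. The genes that rose at 1 h had a median change of 0.243 then and 0.0229 at 24 h, and 1 of the 361 also rose at 24 h. Those that fell had a median of -0.256 at 1 h and 0.0324 at 24 h, and 1 of the 778 also fell at 24 h. The gene that rose at both times was CLK1, with 0.70 ± 0.067 at 24 h (adjusted p = 4.31e-06). The gene that fell at both was the long non-coding RNA LINC00339, at -0.35 ± 0.071 after 1 h and -0.50 ± 0.071 after 24 h. The difference itself, the 24 h effect minus the 1 h effect, was called in 851 probe sets (3.83%) and in 558 genes (4.66%), of which 440 (3.68%) were above 0 and 118 (0.986%) below. It was called in 90 of the genes that rose at 1 h and in 403 of those that fell. Since the genes were chosen for a large change at 1 h, part of this contrast follows from the choice. Without TiO2-NB 24 h replicate 2 the count of probe sets was 465, without control 24 h replicate 3 it was 520 and without control 1 h replicate 3 it was 546.

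The levels show where each gene stood. FAM13A read 12.05, 12.03 and 11.99 in the 24 h controls and 11.96, 12.05 and 12.07 in the 24 h exposed arrays, all above the 1 h controls. KANK1 was at 9.47, 9.41 and 9.42 and 9.41, 9.58 and 9.51, PPARG at 10.17, 10.10 and 10.15 and 10.12, 10.13 and 10.29, with overlap between control and exposed arrays at 24 h. BHLHE40 read 10.69, 10.58 and 10.66 in the 24 h controls and 10.57, 10.76 and 10.77 after 24 h of exposure, so that both groups lay above the 1 h controls at 9.00, 9.14 and 8.88. DDIT4 stood at 11.04, 10.97 and 10.94 and 11.02, 11.01 and 11.05. PCK1 went the other way: its 24 h controls, at 8.82, 8.74 and 8.67, were below the 1 h controls, and the 24 h exposed arrays read 8.81, 8.91 and 8.86. The control wells themselves thus differed between the times, and each effect is taken against the control of its own time.

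**Figure D3:**
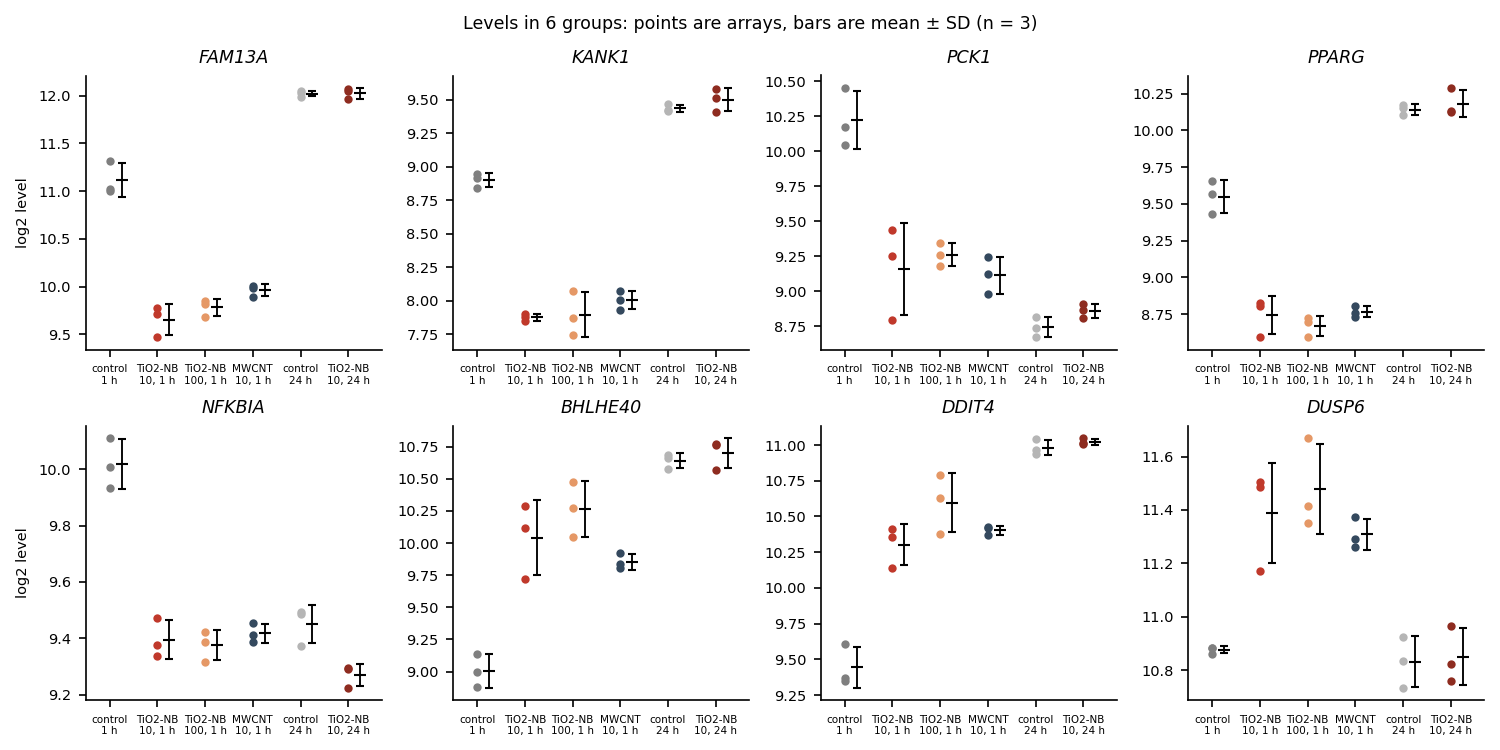
Deposited log2 levels of 8 genes (vertical axes, a scale for each gene) in 6 groups of 3 arrays: control, TiO2-NB at 10 and 100 µg/ml and MWCNT at 10 µg/ml at 1 h, and control and TiO2-NB at 10 µg/ml at 24 h. Points are arrays and bars are mean ± SD (n = 3). In FAM13A, KANK1, PPARG and BHLHE40 the 1 h control stands apart from the 3 exposed groups of that hour, which share it as control, and the pair of 24 h groups lies above it.

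**Figure D4:**
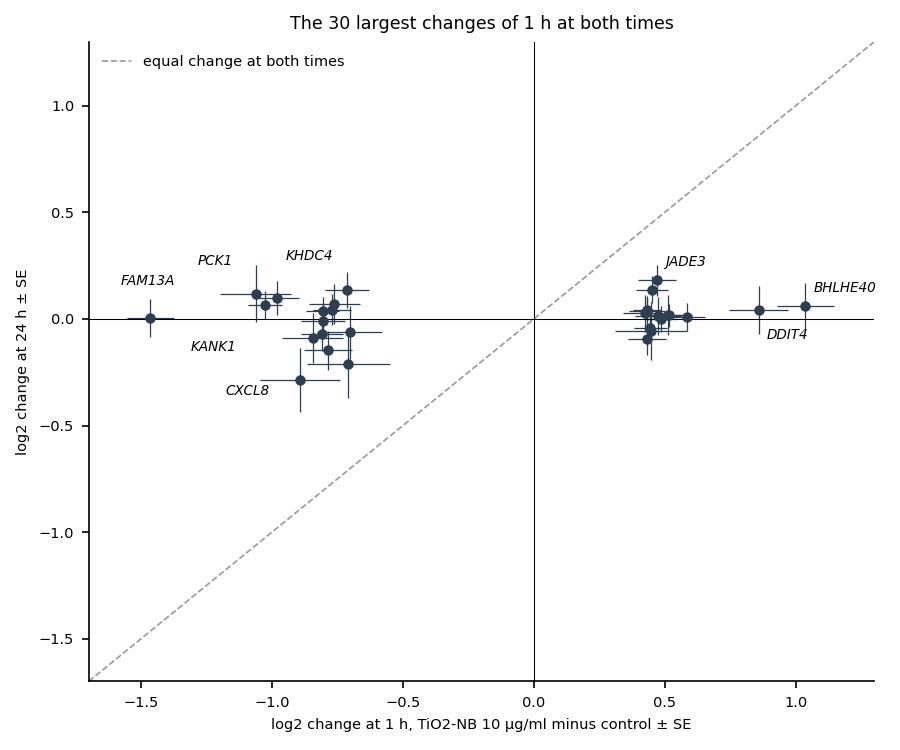
Log2 change with TiO2-NB at 10 µg/ml against the control of the same time, at 1 h (horizontal axis) and 24 h (vertical axis), for the 30 genes with the largest changes at 1 h; bars are ± SE and the dashed line marks equal change. The points lie near the horizontal line at 0, with FAM13A at -1.47 at 1 h and 0.0042 at 24 h. The genes were chosen on the horizontal axis. For CXCL8, ZKSCAN1, JADE3, FGD2 and PLSCR2 the difference between the times was not called.

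Of the 30 genes with the largest changes, 13 have several probe sets. In 6 of these every probe set was called the same way, and in 9 every probe set had the same sign. Several genes named from the lists, among them CLOCK, DBP, CAT, STC2, PNISR and SQSTM1, were called by 1 probe set and by no other. Across all genes, 7 had probe sets called in opposite directions: ARMC8, PDLIM4, PHF8, PLCG1, RASAL2, STK38 and SYNCRIP. STK38, a kinase of the Hippo-related NDR family, fell with -0.39 ± 0.038 by the probe set that stands for it (adjusted p = 4.88e-07), while another rose with 0.25. SYNCRIP, an RNA-binding protein, had 2 probe sets that rose, 1 that fell, with -0.19, and 2 that did not pass. For these 7 genes no direction of the gene as a whole can be given.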

How the data were processed

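RNA of 30 co-culture wells was hybridised to Affymetrix arrays, labelled from 3 µg of total RNA, per the labels' protocols. The authors deposited log2 levels per probe set, made with RMA, per the submitters' processing notes; its version is not given in the sources. RMA corrects background, equalises the distributions of the arrays and summarises probes, so each change is relative to the other transcripts, and arrays have no read depth: their number limits the precision. Of 22277 probe sets, 62 array controls were left out. Symbols came from the platform annotation: 19064 probe sets had 1, 1043 several and 2108 none, and the probe set with the highest mean over all arrays stood for a gene (11963 genes, 19052 probe sets matched to RefSeq).

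A mean per group was fitted over all 30 arrays with limma 3.58.1 in R 4.3.3 (lmFit, eBayes; 20 residual and 3.68 prior degrees of freedom), two-sided; p-values were adjusted within each comparison by Benjamini-Hochberg over the 22215 probe sets, with a call at an adjusted p under 0.05. Errors after ± are limma's standard errors of the log2 change, n = 3 arrays per group. The script was tested on simulated data. The 34 gene lists name 887 genes, 788 of them measured, and 21 genes stand on more than 1 list. The genes and lists were chosen with earlier results of these data known. Genes are named as the 15 largest rises and falls without overlap between groups, up to 4 members of each list by smallest p with its defining member, up to 5 calls each way in the other comparisons, and genes with opposed probe sets; others are marked. Alternatives were fitting only the arrays compared or only those of 1 h, a replicate block, keeping the 14810 probe sets of higher mean, further quantile normalization, robust variances with an intensity trend, weighting of arrays, a single probe set for each gene, the 18S level as a covariate, and leaving out each array.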

Additional observations from a re-analysis of the deposited data

Results flagged for a closer look

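The effect of TiO2-NB at 10 µg/ml differed between 24 h and 1 h, by the test of the difference itself, in 851 probe sets. The values below are the log2 change at 24 h minus that at 1 h, each called at an adjusted p under 0.05 by limma, with 3 arrays in each of the 4 groups. Among genes that fell at 1 h the difference was 1.47 for FAM13A, 1.18 for PCK1, 1.09 for KANK1 and 1.08 for KHDC4. It was 0.85 for both PPARG and TRIM52, 0.83 for N4BP2L1, 0.81 for GRAMD2B and 0.80 for MXI1. EGR1 had 0.75, SLA 0.74, CYP26A1 0.64 and RARB 0.64.

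Among genes that rose at 1 h the difference was -0.98 for BHLHE40, -0.82 for DDIT4, -0.58 for TIGAR and -0.53 for MTMR7. RNF111 had -0.50, and DUSP6, METTL1 and ZNF239 had -0.49 each. BMP2K had -0.46, HES1 -0.39, LRRC8B -0.39 and GATAD2A -0.31. For CXCL8, ZKSCAN1, JADE3, FGD2 and PLSCR2, also among the largest changes of 1 h, the difference between the times was not called.

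A further 3 genes were among the lowest differences without being among the largest changes of 1 h: ANKRD11 at -0.74, a chromatin regulator, CMKLR1 at -0.59, the chemerin receptor, and LRP6 at -0.58, a Wnt co-receptor. ANKRD11 had a change of -0.11 at 1 h and -0.85 at 24 h.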

How the results depend on the processing

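The 1742 called probe sets of TiO2-NB at 10 µg/ml against control numbered 219 when only the 6 arrays compared were fitted and 920 with the 15 arrays of 1 h, settings with fewer residual degrees of freedom. They numbered 1026 to 1730 when 1 array was left out and between 1286 and 1996 under the other alternatives. No shared call had the opposite sign under any of them. All these fits use most or all of the same exposed and control arrays, so that outcome was largely fixed in advance. The 851 calls of the difference between 24 h and 1 h became 277 with only the arrays compared and 465 to 1024 with 1 array left out. The 15 calls of MWCNT against TiO2-NB became 0 with only the arrays compared, 27 with the 14810 probe sets of higher mean level, 8 after further quantile normalization, 35 with an intensity trend and robust variances, 94 with array weights and 0 to 12 with 1 array left out; beyond the smaller fits, the cause was not tested. Of the 118 called genes named in the text, 77 lost their call with only the arrays compared, 27 with the 15 arrays of 1 h, 18 with the 18S level as a covariate and 30 without control replicate 2. Of the 30 largest changes, the calls of CYP26A1, DUSP6, METTL1 and PLSCR2 were lost with only the arrays compared, and FGD2 was lost under 9 of 14 settings. With the replicate number as a block, 1631 probe sets were called, with 801 for the difference between times and 11 between particles. No pairing of arrays by number was evident, though pairing was not tested. Deviations of arrays with the same number correlated at -0.046, 0.114 and -0.022, and those with different numbers at -0.165 to 0.195. Small changes of genes near background are limited by the 3 arrays per group, and the table gives no detection calls.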
